A study of Mus musculus with 10 samples.

Results

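Transcript levels of 10 genes associated with plasmacytoid dendritic cells (pDCs) were followed in sorted dendritic cell precursors of mouse spleen. The genes were Siglech, Bst2, Lair1, Cd300c and Ccr9 (surface receptors), Pacsin1 and Pld4 (membrane and endolysosomal proteins), and Cox6a2, Atp1b1 and Upb1 (respiratory, ion pump and pyrimidine enzymes). They were taken by gene symbol from a table of 52550 genes, each symbol matched 1 row, and all 10 passed the filter on low values.

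The libraries fell into 4 groups, named here by genotype and by the cell type on their labels: KO pre-cDC2 (2 libraries, replicates 1 and 2), WT pre-cDC2 (2 libraries, replicates 2 and 3), KO pre-cDC1 (3 libraries) and WT pre-cDC1 (3 libraries). KO stands for CD11c-cre Adam10fl/fl, in which Cre recombinase, driven by regulatory sequence of the dendritic cell integrin CD11c, deletes a loxP-flanked segment of Adam10, and WT for wild type. CD11c is shared by pDCs, other dendritic cells and some lymphocytes and macrophages, so the deletion need not be limited to the sorted cells. The mice were C57BL/6, and the title of the study concerns FLT3L shedding by ADAM10, a membrane metalloprotease. Pre-cDC1 and pre-cDC2 are the committed precursors of the conventional dendritic cell types cDC1 and cDC2. The sample titles call the pre-cDC1 libraries DN and the pre-cDC2 libraries Ly6C, while age, sex, sort gates, whether WT mice carried Cre or loxP sites, and whether a library is 1 animal or a pool are details the labels leave open and are not used here. The p-values therefore measure the spread between libraries only, which may be technical.

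pDCs are the main producers of type I interferon after endosomal Toll-like receptors sense viral nucleic acid. Their identity depends on the E protein TCF4, and in the mouse they are recognised by the lectin SIGLEC-H and by BST2 (tetherin, PDCA-1). pDCs and conventional dendritic cells share FLT3L-dependent progenitors, and Siglech transcripts are known from early dendritic cell precursors as well as from pDCs. Several of the genes have further sites of expression: Bst2 is interferon-inducible in many cells, Lair1 occurs on most leukocytes, and Ccr9 is also a receptor of thymocytes and gut-homing lymphocytes.

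The promoter sequences of Siglech, Bst2 and Pld4 are shown because the first marks pDCs, the second carries an interferon-response motif, and the third has the opposite pattern between the cell types. They are the 250 bases before the transcript start in RefSeq (GRCm38.p6), written 5′ to 3′ on the strand of the gene: chr7:55767934-55768183, plus strand, for Siglech; chr8:71537473-71537722, minus strand, for Bst2; and chr12:112760405-112760654, plus strand, for Pld4. Capitals mark E-boxes (CANNTG, the sequence that E proteins bind) in Siglech and Pld4. In Bst2, capitals mark an overlapping pair of the core of the interferon-stimulated response element (GAAA, any 2 bases, GAAA).
Siglech: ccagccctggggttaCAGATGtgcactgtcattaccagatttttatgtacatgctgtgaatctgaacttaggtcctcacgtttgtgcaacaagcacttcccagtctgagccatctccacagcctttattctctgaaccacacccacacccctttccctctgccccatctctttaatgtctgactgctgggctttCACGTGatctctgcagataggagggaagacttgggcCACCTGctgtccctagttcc
Bst2: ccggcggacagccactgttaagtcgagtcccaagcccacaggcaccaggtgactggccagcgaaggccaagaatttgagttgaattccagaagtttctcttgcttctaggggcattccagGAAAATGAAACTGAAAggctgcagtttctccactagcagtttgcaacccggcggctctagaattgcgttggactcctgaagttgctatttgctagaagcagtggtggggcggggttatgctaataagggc
Pld4: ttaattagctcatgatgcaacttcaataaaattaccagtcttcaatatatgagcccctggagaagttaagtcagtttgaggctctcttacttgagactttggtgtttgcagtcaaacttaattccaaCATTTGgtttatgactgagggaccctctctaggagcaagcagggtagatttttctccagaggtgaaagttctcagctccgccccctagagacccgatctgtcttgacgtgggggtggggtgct
Counted back from the start, the Siglech E-boxes begin at -235, -56 and -20, the Pld4 E-box at -123, and the Bst2 pair at -130 and -124. Both strands were searched, and 9 of the 10 genes had a promoter in the table. An E-box was found in 66.2% of all 32851 promoters of this length and the interferon-response core in 2.98%, so an E-box sets no gene apart. Cd300c held 4 E-boxes and 1 interferon-response core at -231, Ccr9 held 2 E-boxes, Lair1 and Bst2 held 1 each, and Atp1b1, Upb1 and Pacsin1 held none of either motif. The ETS motif GAGGAAGT, of the kind PU.1 and SPIB bind, was in 2.44% of all promoters and in 0 of the 9. These are matches of letters, not measured binding.

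The deposited unit is log2 RPKM, so levels of different genes are per length and 0 is 1 RPKM. Reads are scaled to exon length and to an effective library size, which the values imply. That size was 0.905 to 0.956 times the reads in pre-cDC1 libraries and 1.04 to 1.13 times in pre-cDC2 libraries. Libraries held 7862449 to 13177686 reads in genes. Of the lists that mark the labelled cell types, 11 of 12 cDC1 genes were lower in pre-cDC2 than in pre-cDC1 in either genotype (limma, adjusted p below 0.05), and Ly6c2 was higher in pre-cDC2 by 6.35 ± 0.29 (KO) and 6.18 ± 0.29 (WT) log2 units (difference ± SE). Of 11 cDC2 genes, 8 were called higher in pre-cDC2 than in pre-cDC1 in KO and 1, Ly6c2, in WT. As the pre-cDC2 sample titles name Ly6C, a higher Ly6c2 may follow from the sort and is not an independent check of the labels. No other cDC2 gene was called in WT. Of 8 core cDC genes, 6 were called lower in pre-cDC2 in either genotype (median -2.25 in KO and -1.88 in WT). Over all tested genes, 10.7% were called higher and 10.1% lower in pre-cDC2 in KO, and 4.88% and 6.59% in WT. WT pre-cDC2 replicate 2 did not resemble the remaining 3 pre-cDC2 libraries in lymphocyte transcripts. Its 15 T cell genes summed to 140 RPKM and its 13 NK cell genes to 113 RPKM, against 1870 and 1766 RPKM (T) and 2395 and 2030 RPKM (NK) in KO pre-cDC2 and 2626 and 2307 RPKM in WT pre-cDC2 replicate 3. In KO pre-cDC1 the same sums were 4.8 to 5.35 RPKM (T) and 41.6 to 44.5 RPKM (NK). WT pre-cDC1 had 13.9 to 25.2 RPKM and 62.4 to 70.0 RPKM for the same lists. Every T and NK gene had reads in the 4 pre-cDC2 libraries, whereas 3 to 5 T genes, Lef1 among them, were at 0 reads in each KO pre-cDC1 library. Summed RPKM of 12 B cell genes were 1416 to 1527 in KO pre-cDC2, 1110 and 1727 in WT pre-cDC2 replicates 2 and 3, 355 to 404 for KO pre-cDC1, and 599 to 701 for WT pre-cDC1. The part of T, NK or B cell RNA in the results below was not tested. In bulk libraries, fewer cells of a type and less RNA per cell cannot be told apart. Adam10 had 909 and 742 reads in KO pre-cDC2 and 228 and 1261 reads in WT pre-cDC2, and 9, 3 and 13 reads in KO pre-cDC1 against 28, 48 and 10 reads in WT pre-cDC1. KO and WT did not differ in Adam10 beyond the spread between libraries in pre-cDC2 (log2 difference 1.03 ± 1.12 SE, limma adjusted p = 0.884) or in pre-cDC1 (-1.68 ± 0.92, adjusted p = 0.644). A value over the whole gene includes exons outside the deleted segment and does not check the deletion.

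The 10 genes did not all run the same way across the 4 groups. Siglech, Bst2, Lair1, Cox6a2, Atp1b1 and Upb1 were higher in pre-cDC2 than in pre-cDC1 in both genotypes, Pld4 was lower in pre-cDC2 in both, and Ccr9 and Cd300c did not pass the test in either. Pacsin1 was higher in pre-cDC2 in KO and missed the threshold in WT. With limma on all 10 libraries and Benjamini-Hochberg adjustment over 14787 genes (threshold 0.05, two-sided), 8 of 10 passed between KO pre-cDC2 and KO pre-cDC1, where 20.8% of all tested genes did: 7 were higher (10.7% of all) and 1 lower (10.1%). Between WT pre-cDC2 and WT pre-cDC1, 7 of 10 passed, where 11.5% of all tested genes did: 6 were higher (4.88% of all) and 1 lower (6.59%). The median log2 difference over the 10 genes was 3.29 in KO and 2.57 in WT, beside 0.09 and 0.06 over all tested genes.

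**Figure D1:**
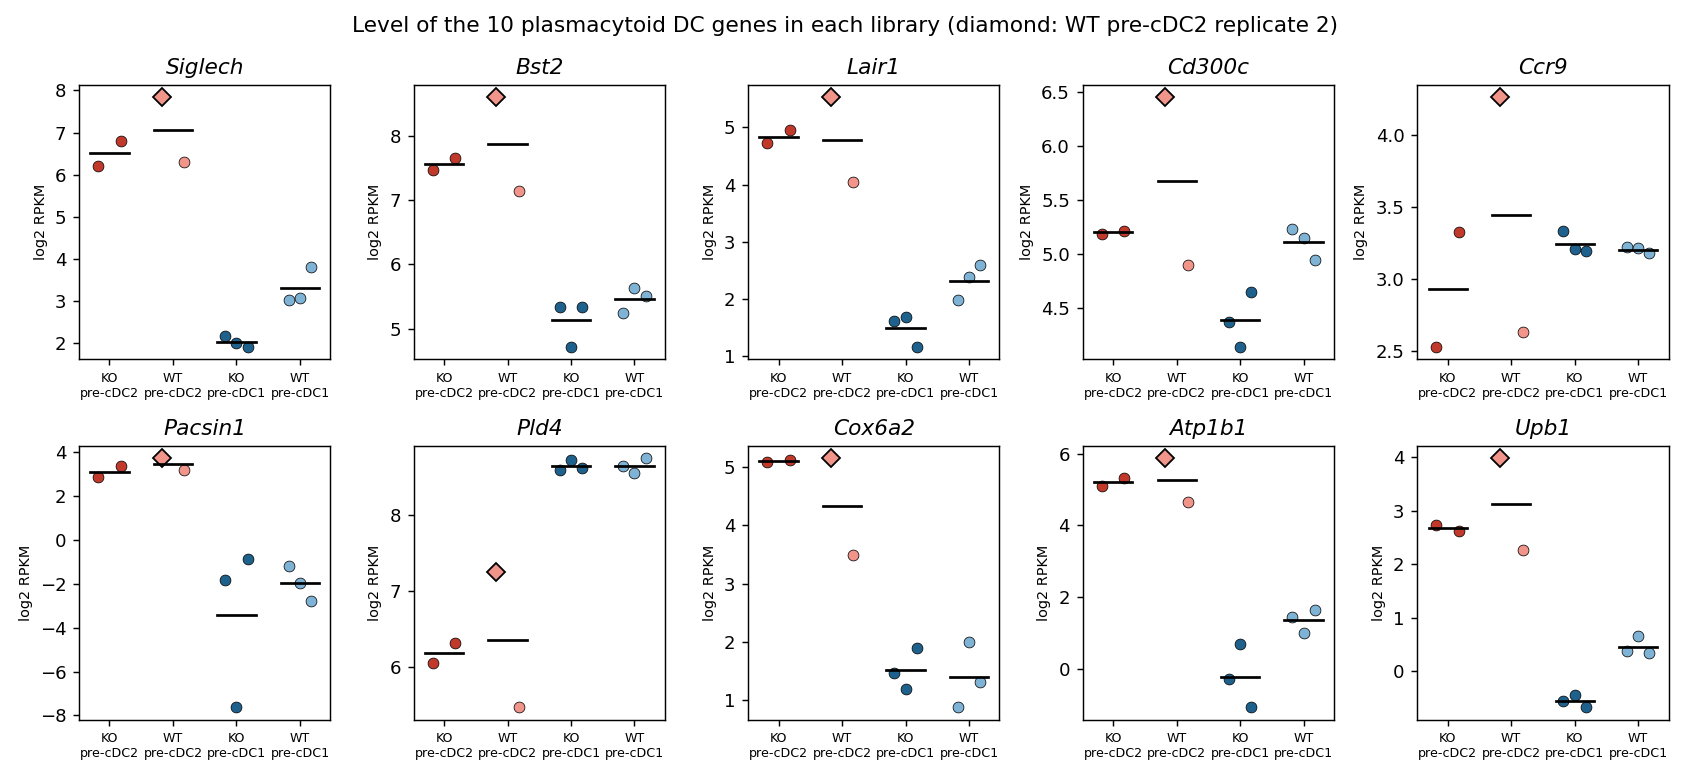
Level of each of the 10 genes (log2 RPKM, vertical axis) in every library of KO pre-cDC2, WT pre-cDC2, KO pre-cDC1 and WT pre-cDC1; points are libraries, bars are group means, and the diamond is WT pre-cDC2 replicate 2. The diamond is the highest pre-cDC2 library for 10 of 10 genes, and Pld4 runs opposite to Siglech between the cell types.

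Siglech encodes a sialic acid binding lectin of mouse pDCs that signals through the adaptor DAP12. It stood at 6.22 and 6.81 log2 RPKM in KO pre-cDC2, 7.83 and 6.29 in WT pre-cDC2, 2.19, 2.00 and 1.92 in KO pre-cDC1, and 3.03, 3.07 and 3.81 in WT pre-cDC1. Every pre-cDC2 library lay above every pre-cDC1 library, and the KO pre-cDC1 libraries lay below the WT pre-cDC1 libraries. In reads, these were 2470 and 3310, 10597 and 2948, 158, 133 and 97, and 247, 254 and 483 in the same order of groups. Siglech was 22.2-fold higher in KO pre-cDC2 than in KO pre-cDC1 (log2 difference 4.48 ± 0.42 SE, 95% interval 3.53 to 5.42, limma adjusted p = 0.00015). It was 13.6-fold higher in WT pre-cDC2 than in WT pre-cDC1 (3.76 ± 0.42, 2.82 to 4.70, adjusted p = 0.000629).

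Bst2 encodes tetherin, which holds budding virions at the cell surface. Its level was 7.46 and 7.66 log2 RPKM in KO pre-cDC2, 8.60 and 7.15 in WT pre-cDC2, 5.34, 4.72 and 5.33 in KO pre-cDC1, and 5.25, 5.63 and 5.51 in WT pre-cDC1. It was the most abundant of the 10 genes per length in every pre-cDC2 library and stayed above 4.7 log2 RPKM in pre-cDC1, where KO and WT libraries overlapped. The difference between pre-cDC2 and pre-cDC1 was 5.38-fold in KO (2.43 ± 0.37, adjusted p = 0.00187) and 5.31-fold in WT (2.41 ± 0.37, adjusted p = 0.00369), the closest agreement between genotypes among the genes that passed.

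Lair1 encodes an inhibitory collagen receptor with cytoplasmic tyrosine motifs. It measured 4.73 and 4.95 log2 RPKM in KO pre-cDC2, 5.53 and 4.04 in WT pre-cDC2, 1.62, 1.69 and 1.17 in KO pre-cDC1, and 1.98, 2.38 and 2.59 in WT pre-cDC1. As for Siglech, the pre-cDC2 libraries were all above the pre-cDC1 libraries, and the KO pre-cDC1 libraries were all below the WT ones. Lair1 was 10.2-fold higher in KO pre-cDC2 than in KO pre-cDC1 (3.35 ± 0.40, adjusted p = 0.000545) and 5.53-fold higher in WT pre-cDC2 than in WT pre-cDC1 (2.47 ± 0.40, adjusted p = 0.00469).

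Cd300c encodes an activating receptor of the CD300 family of myeloid cells. It showed 5.19 and 5.22 log2 RPKM in KO pre-cDC2, 6.45 and 4.90 in WT pre-cDC2, 4.37, 4.15 and 4.65 in KO pre-cDC1, and 5.24, 5.15 and 4.95 in WT pre-cDC1. WT pre-cDC2 overlapped WT pre-cDC1, while KO pre-cDC2 lay above KO pre-cDC1. The difference was 0.82 ± 0.37 in KO (95% interval -0.01 to 1.65, adjusted p = 0.158) and 0.56 ± 0.37 in WT (-0.27 to 1.39, adjusted p = 0.391). Cd300c passed in KO when either WT pre-cDC2 library was left out of the fit (adjusted p = 0.00747 without replicate 2 and 0.00713 without replicate 3), in KO in a fit of the KO libraries alone (adjusted p = 0.0305), and in WT without replicate 3 (1.34, adjusted p = 0.00526). The related Cd300c2, whose reads could be split with it, did not pass in KO (-0.43 ± 0.41, adjusted p = 0.516) or WT (-0.27 ± 0.41, adjusted p = 0.742).

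Ccr9, the receptor for the gut and thymic chemokine CCL25, was the flattest of the 10 genes. It was at 2.53 and 3.32 log2 RPKM in KO pre-cDC2, 4.26 and 2.63 in WT pre-cDC2, 3.33, 3.21 and 3.19 in KO pre-cDC1, and 3.22, 3.21 and 3.18 in WT pre-cDC1. The 6 pre-cDC1 libraries all lay between 3.18 and 3.33, and the pre-cDC2 libraries lay on both sides of them. The difference between pre-cDC2 and pre-cDC1 was -0.32 ± 0.42 in KO (95% interval -1.25 to 0.62, adjusted p = 0.646) and 0.24 ± 0.42 in WT (-0.69 to 1.18, adjusted p = 0.769). In the annotation 18.8% of the exonic bases of Ccr9 are shared with AC165425.1 on the opposite strand, which had 0 to 4 reads per library. The labels do not say whether reads were counted by strand.

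Pacsin1 encodes an F-BAR protein of membrane trafficking that is otherwise neuronal and, in pDCs, is needed for interferon production after TLR7 and TLR9 ligation. It had 349 and 437 reads in KO pre-cDC2, 895 and 505 in WT pre-cDC2, 14, 0 and 20 in KO pre-cDC1, and 19, 11 and 7 in WT pre-cDC1. In log2 RPKM these were 2.86 and 3.36, 3.74 and 3.22, -1.82, -7.63 and -0.87, and -1.19, -1.96 and -2.78 in the same order of groups, where -7.63 stands for the library at 0 reads. All pre-cDC2 libraries were thus above all pre-cDC1 libraries, with no overlap. Pacsin1 passed in KO (adjusted p = 0.0228) and not in WT (adjusted p = 0.0695), where it passed without the KO pre-cDC1 library at 0 reads, replicate 2 (adjusted p = 0.00174) and with which the SD of KO pre-cDC1 was 3.66 log2 units. In KO it did not pass without KO pre-cDC2 replicate 1 (adjusted p = 0.118) or 2 (adjusted p = 0.129). The fitted size is not given as a fold because it depends on the value assigned to 0 reads.

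Pld4 encodes an endolysosomal exonuclease that trims single-stranded nucleic acid and limits TLR9 and TLR7 signalling. Its level was 6.05 and 6.32 log2 RPKM in KO pre-cDC2, 7.24 and 5.47 in WT pre-cDC2, 8.58, 8.72 and 8.61 in KO pre-cDC1, and 8.64, 8.54 and 8.75 in WT pre-cDC1. It was the most abundant of the 10 genes in every pre-cDC1 library, and no pre-cDC2 library reached the lowest pre-cDC1 library. Pld4 was 5.48-fold lower in KO pre-cDC2 than in KO pre-cDC1 (log2 difference -2.45 ± 0.40, 95% interval -3.36 to -1.55, adjusted p = 0.00269). It was 4.88-fold lower in WT pre-cDC2 than in WT pre-cDC1 (-2.29 ± 0.40, -3.19 to -1.38, adjusted p = 0.00691).

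Cox6a2 encodes the heart and muscle form of a cytochrome c oxidase subunit that is also a pDC transcript in the mouse. It was at 5.08 and 5.11 log2 RPKM in KO pre-cDC2, 5.15 and 3.49 in WT pre-cDC2, 1.46, 1.19 and 1.90 in KO pre-cDC1, and 0.88, 1.99 and 1.32 in WT pre-cDC1. WT pre-cDC2 replicate 3 was the lowest pre-cDC2 library yet still above every pre-cDC1 library. Cox6a2 was 12.0-fold higher in KO pre-cDC2 than in KO pre-cDC1 (3.58 ± 0.48, adjusted p = 0.00101) and 7.60-fold higher in WT pre-cDC2 than in WT pre-cDC1 (2.93 ± 0.48, adjusted p = 0.00525). The pre-cDC1 levels rest on 11 to 24 reads per library. In addition, 10.3% of its exonic bases overlap Itgad on the opposite strand, and Itgad had 657 and 468 reads in KO pre-cDC2, 789 and 443 in WT pre-cDC2, and 20 to 97 in the pre-cDC1 libraries, so reads of the overlap could come from either gene.

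Atp1b1 encodes the beta 1 subunit of the sodium-potassium pump. It stood at 5.10 and 5.33 log2 RPKM in KO pre-cDC2, 5.87 and 4.65 in WT pre-cDC2, -0.27, 0.70 and -1.06 in KO pre-cDC1, and 1.46, 1.00 and 1.65 in WT pre-cDC1. Among the 9 genes with reads in every library it had the widest gap between the cell types: 43.0-fold higher in KO pre-cDC2 than in KO pre-cDC1 (5.42 ± 0.52, 95% interval 4.26 to 6.59, adjusted p = 0.000164) and 14.8-fold higher in WT pre-cDC2 than in WT pre-cDC1 (3.89 ± 0.52, 2.72 to 5.05, adjusted p = 0.00183). The pre-cDC1 levels of Atp1b1 rest on 26, 49 and 11 reads in KO and 76, 55 and 98 reads in WT. In the annotation 18.7% of its exonic bases overlap Nme7 on the opposite strand, so reads of the overlap could come from either gene. Nme7 had 53, 30 and 21 reads in KO pre-cDC1, and 21, 41 and 118 in WT pre-cDC1. In pre-cDC2, Nme7 had 86 and 43 reads (KO) and 96 and 68 reads (WT).

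Upb1 encodes beta-ureidopropionase, the last enzyme of pyrimidine breakdown. It measured 2.73 and 2.61 log2 RPKM in KO pre-cDC2, 3.98 and 2.26 in WT pre-cDC2, -0.56, -0.44 and -0.68 in KO pre-cDC1, and 0.38, 0.66 and 0.34 in WT pre-cDC1. Here too all pre-cDC2 libraries were above all pre-cDC1 libraries. Upb1 was 9.40-fold higher in KO pre-cDC2 than in KO pre-cDC1 (3.23 ± 0.49, adjusted p = 0.0019) and 6.33-fold higher in WT pre-cDC2 than in WT pre-cDC1 (2.66 ± 0.49, adjusted p = 0.00904).

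Counted by library, 9 of the 10 genes had no overlap between KO pre-cDC2 and KO pre-cDC1 (51.7% of all tested genes) and 8 of 10 between WT pre-cDC2 and WT pre-cDC1 (38.7%). The 2 WT pre-cDC2 libraries differed from each other by 0.52 (Pacsin1) to 1.78 (Pld4) log2 units, always with replicate 2 higher, and replicate 2 exceeded the mean of the other 3 pre-cDC2 libraries by a median of 1.24 over the 10 genes (range 0.586 to 1.45) and of 0 over all tested genes. It was the highest pre-cDC2 library for 10 of 10 genes, and for 32.4% of all tested genes. In that library the summed T and NK transcripts were lowest and the summed core cDC transcripts highest of the 4 pre-cDC2 libraries, with a core cDC sum of 11020 RPKM against 3612 RPKM in replicate 3. Leaving out replicate 2, or replicate 3, left 7 and 8 of the 10 genes called in WT, in fits that called 18.4% and 10.4% of all tested genes. Limma on the WT libraries alone called 3 of 10 (Siglech, Atp1b1 and Pacsin1) and 3.11% of all tested genes, with adjusted p from 0.0716 to 0.103 for Bst2, Lair1, Cox6a2, Upb1 and Pld4.

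Between KO and WT pre-cDC1, several of the genes had lower values in every KO library than in any WT library, none past the adjusted threshold. Siglech averaged 2.04 ± 0.13 log2 RPKM in KO and 3.3 ± 0.44 in WT (SD, n = 3 each), a log2 difference of -1.26 ± 0.37 SE (95% interval -2.11 to -0.42, limma adjusted p = 0.311). Atp1b1 averaged -0.21 ± 0.88 in KO and 1.37 ± 0.33 in WT, a difference of -1.58 ± 0.46 (-2.62 to -0.54, limma adjusted p = 0.301). KO and WT libraries did not overlap for either gene, but neither difference held after adjustment over all genes, and for Atp1b1 the KO libraries alone ran from -1.06 to 0.70.

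Of the 10 genes, 0 passed the adjusted threshold between KO and WT pre-cDC1, where 0.0271% of all tested genes (4 genes) did. At an unadjusted limma p below 0.05 there were 4 (Atp1b1, Siglech, Lair1 and Upb1), where 9.03% of all tested genes were. All KO libraries lay below all WT libraries for 5 of 10 genes (Atp1b1, Siglech, Lair1, Upb1 and Cd300c), where 9.27% of all tested genes did (17.2% in either direction). Lair1 was at -0.83 ± 0.36 (adjusted p = 0.535), Upb1 at -1.02 ± 0.44 (0.537) and Cd300c at -0.72 ± 0.33 (0.56). The other genes overlapped between the genotypes: the difference was -0.33 ± 0.33 for Bst2, 0.12 ± 0.43 for Cox6a2, 0.04 ± 0.37 for Ccr9 and -0.00 ± 0.36 for Pld4 (95% interval -0.81 to 0.80), with adjusted p between 0.856 and 1. Pacsin1 overlapped as well, with 14, 0 and 20 reads in KO against 19, 11 and 7 in WT (adjusted p = 0.86). Each SE above pools the spread of all 4 groups, WT pre-cDC2 included. For Upb1 the SD was 0.12 (KO) and 0.18 (WT) log2 units in pre-cDC1 and 1.22 in WT pre-cDC2. For Atp1b1 these were 0.88, 0.33 and 0.87. In a limma fit of the pre-cDC1 libraries alone, 0 of the 10 genes passed, where 0.358% of all tested genes (53 genes) did. The median difference over the 10 genes was -0.77, beside -0.00 over all tested genes. Lymphocyte and cDC2 transcripts were also at lower values in KO than in WT pre-cDC1, none past the adjusted threshold: 14 of 15 T cell genes (median -2.59), 13 of 13 NK genes (median -2.27) and 10 of 11 cDC2 genes (median -1.54). Of 9 erythroid genes, 7 were at higher values in KO (median 1.84, 0 past the threshold); in pre-cDC2 all 9 were (median 3.46, 2 past the threshold). Their part in the values of Siglech, Atp1b1, Lair1, Upb1 and Cd300c was not tested.

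**Figure D2:**
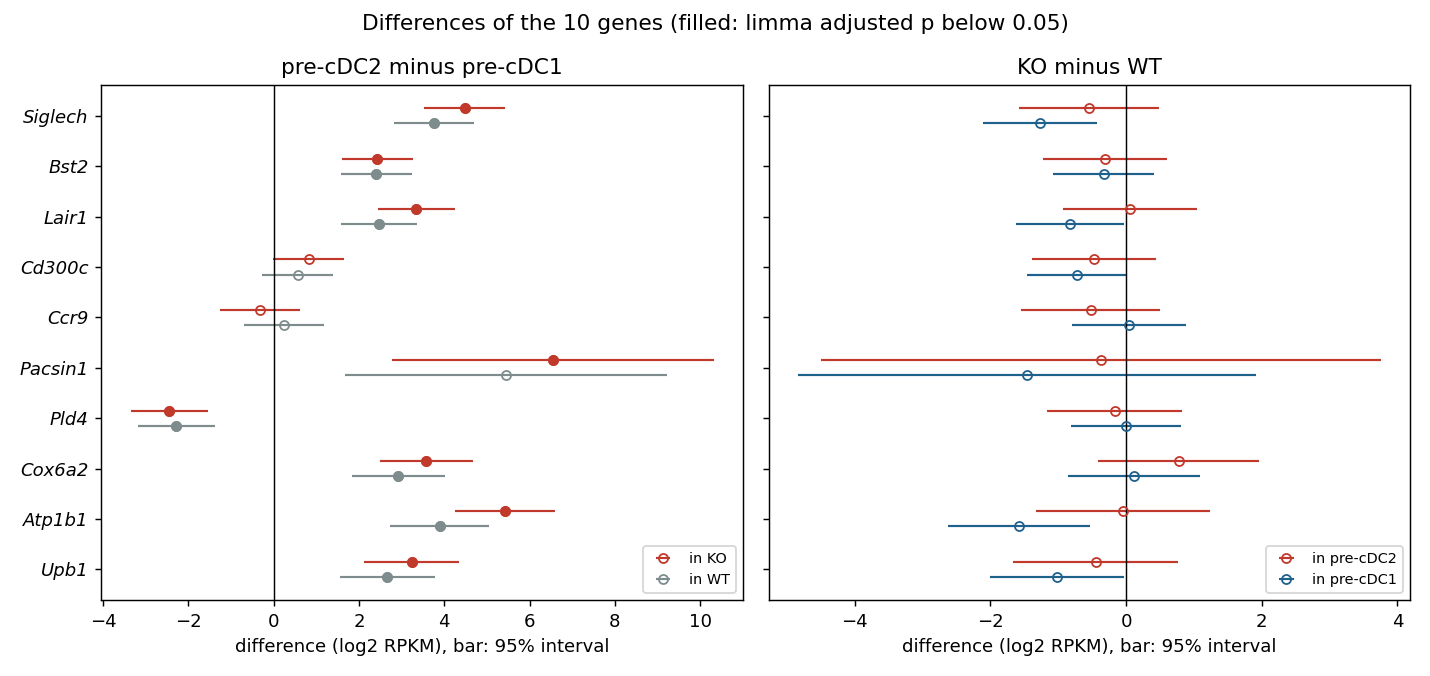
Log2 difference of each gene with its 95% interval in the comparisons of KO with WT and of pre-cDC2 with pre-cDC1; filled points passed limma's adjusted threshold of 0.05. No point is filled between KO and WT, while 8 (KO) and 7 (WT) are filled between pre-cDC2 and pre-cDC1, Pld4 alone among them on the lower side.

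In pre-cDC2, KO and WT overlapped for every one of the 10 genes (30.2% of all tested genes did not overlap). Siglech averaged 6.51 ± 0.42 log2 RPKM in KO and 7.06 ± 1.09 in WT (SD, n = 2 each), a difference of -0.55 ± 0.46 SE (limma adjusted p = 0.85). Cox6a2 had the widest difference, 5.10 ± 0.02 in KO and 4.32 ± 1.17 in WT (0.78 ± 0.53, adjusted p = 0.834). The remaining 8 lay between -0.52 ± 0.45 (Ccr9) and 0.06 ± 0.44 (Lair1). None of the 10 passed the adjusted threshold (0.0676% of all tested genes, 10 genes) and 0 had an unadjusted limma p below 0.05 (6.67%).

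The sign of these differences followed which WT pre-cDC2 library was used. Without replicate 2, all but Pacsin1 were higher in KO, among them Siglech by 0.22 and Pld4 by 0.72 log2 units, and none passed. Without replicate 3, Ccr9 (-1.33, adjusted p = 0.0419), Cd300c (-1.25, 0.0151) and Pld4 (-1.06, 0.00863) were lower in KO and passed, in a fit that called 7.09% of all tested genes, the lone WT library being assumed to vary like the other groups. The effect of the deletion was compared between the cell types by the interaction term, which was called for 0 of 10 genes (0.0203% of all tested genes, 3 genes), 0 of them at an unadjusted p below 0.05 (4.82%). Its largest value was that of Atp1b1, 1.54 ± 0.73 (limma adjusted p = 0.987). Without WT pre-cDC2 replicate 3, the interaction of Pld4 passed (-1.06, adjusted p = 0.0259), as did 3.35% of all tested genes.

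Within a library the ratio of each gene to Siglech does not depend on the library's total. Ccr9 lay 3.69 to 3.49 log2 units below Siglech in the 4 pre-cDC2 libraries, a spread of 0.20, although its own level spread from 2.53 to 4.26. In pre-cDC1 it was 1.14 to 1.27 above Siglech in KO and between 0.63 below and 0.19 above it in WT. Cd300c and Bst2 also lay higher relative to Siglech in pre-cDC1: Cd300c was at -1.59 to -1.03 in pre-cDC2 and 1.14 to 2.72 in pre-cDC1, and Bst2 at 0.76 to 1.24 and 1.70 to 3.41. Pld4 was just under Siglech in pre-cDC2 (-0.82 to -0.16) and far above it in pre-cDC1, by 6.40 to 6.72 in KO and 4.93 to 5.61 in WT. Cox6a2 was at -1.70 and -1.13 in KO pre-cDC2 and at -2.80 and -2.68 in WT pre-cDC2, and Lair1 at -1.86 and -1.48 against -2.31 and -2.25. Relative to Siglech, 4 of the other 9 genes (Atp1b1, Cox6a2, Lair1 and Pld4) lay higher in both KO than in both WT pre-cDC2 libraries, where 14.4% of all tested genes did. No test was made of these ratios.

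**Figure D3:**
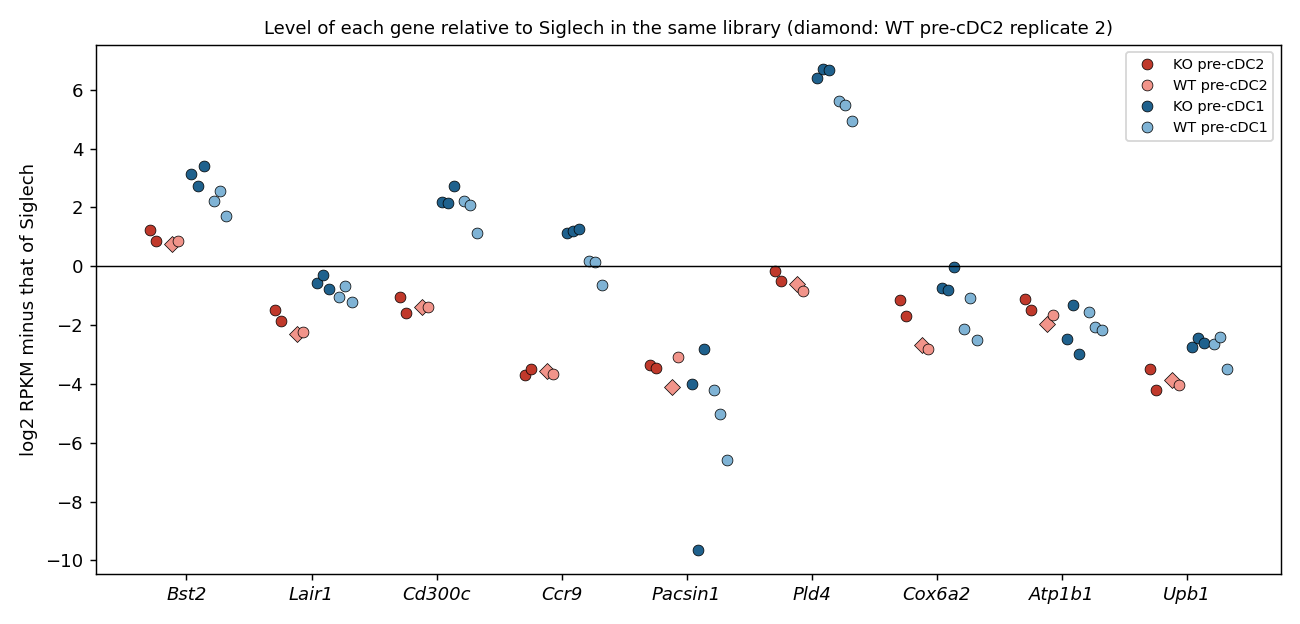
Level of each other gene minus that of Siglech in the same library (log2 units, vertical axis), by group; points are libraries and the diamond is WT pre-cDC2 replicate 2. Ccr9 spans only 0.20 log2 units over the 4 pre-cDC2 libraries, and Pld4 is below Siglech there and 4.93 to 6.72 above it in pre-cDC1.

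By the root mean square difference of centred log2 RPKM over the 10 libraries, the genes outside the group with the pattern most like that of Siglech were Lag3 (0.361), Adora2a (0.427), Blnk (0.458), Zeb2 (0.482) and Lifr (0.497). Lag3 encodes an inhibitory receptor of pDCs and activated T cells, and Blnk an adaptor of B cell and pDC receptor signalling. Within the group the closest were Atp1b1 (0.539), Upb1 (0.658) and Lair1 (0.67), then Cox6a2 (0.897) and Bst2 (0.948). Cd300c (1.72), Pacsin1 (1.97), Ccr9 (2.11) and Pld4 (3.22) were the least like it. The libraries share their depth and makeup across genes, so this is a description.

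The pDC genes outside the group, a list of 30 of which 29 were tested, also divided between the cell types. Between KO pre-cDC2 and KO pre-cDC1, 15 rose (10.7% of all tested genes did) and 5 fell (10.1%), with a median log2 difference of 2.76. Between WT pre-cDC2 and WT pre-cDC1, 13 rose (4.88% of all tested genes did) and 2 fell (6.59%), with a median of 1.89. The transcription factor genes Runx2 (3.47 ± 0.28, adjusted p = 6.29e-05) and Spib (4.09 ± 0.34, adjusted p = 7.87e-05) were among the 3 with the smallest p in KO. In WT these included Runx2 (2.90 ± 0.28, adjusted p = 0.000289) and Lag3 (3.39 ± 0.49, adjusted p = 0.00273). Tcf4, the E protein gene of pDC identity, was higher in pre-cDC2 by 2.76 ± 0.40 in KO (adjusted p = 0.00136) and 2.50 ± 0.40 in WT (adjusted p = 0.00427), chosen for mention after its values were seen. The genes that fell were Irf8, shared with cDC1, and Rnase6 in both genotypes, and Xbp1, Dntt and Pik3ap1 in KO. Lag3 and Gzmb of this list are among those that are also T or NK cell transcripts, and T and NK genes rose between the same libraries (15 of 15 and 12 of 13 in KO, 9 of 15 and 2 of 13 in WT).

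Between KO and WT pre-cDC1, 0 of these 29 genes passed, 23 were lower and 5 higher, and the median difference was -0.46. Spib, which encodes an ETS factor of pDCs and B cells, came nearest: 2.36, 2.10 and 1.90 log2 RPKM in KO pre-cDC1 against 3.98, 4.52 and 4.45 in WT pre-cDC1. The difference was -2.19 ± 0.31 (limma adjusted p = 0.0526). Zeb2 was at -1.88 ± 0.48 (adjusted p = 0.219). Between KO and WT pre-cDC2, 0 of 29 passed, 20 were lower and 9 higher, and the median was -0.30. Pik3ap1 (-0.58 ± 0.25, adjusted p = 0.744), Spns3 (-0.95 ± 0.51, 0.798) and Smim5 (-0.65 ± 0.41, 0.826) had the smallest p there.

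**Figure D4:**
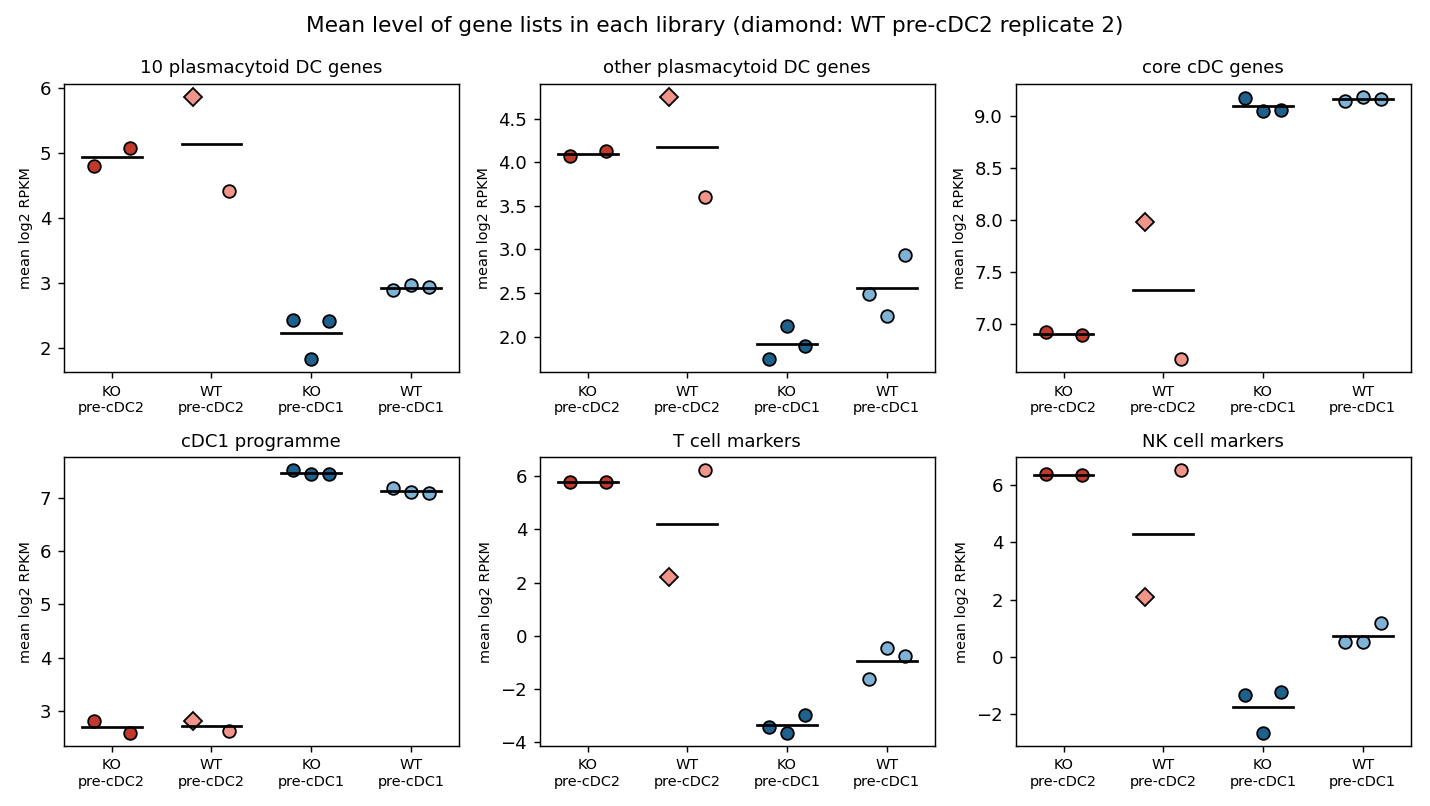
Mean log2 RPKM (vertical axis) of the 10 genes, the other pDC genes and the core cDC, cDC1, T cell and NK cell lists in each library, by group; bars are group means and the diamond is WT pre-cDC2 replicate 2. That library is highest of the pre-cDC2 libraries for the pDC and core cDC lists and lowest for the T and NK lists.

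Siglec-H, CD300 and LAIR-1 signal through adaptors and phosphatases, and 7 such genes were tested. Of these, 3 rose (10.7% of all tested genes did) and 1 fell (10.1%) between KO pre-cDC2 and KO pre-cDC1. Another count, between WT pre-cDC2 and WT pre-cDC1, was 2 that rose (4.88%) and 1 that fell (6.59%). Hcst, encoding the adaptor DAP10, which T and NK cells also express, was higher by 3.54 ± 0.46 in KO (adjusted p = 0.000871) and 2.06 ± 0.46 in WT (adjusted p = 0.0208). Fcer1g, the Fc receptor gamma chain gene, was higher by 1.77 ± 0.32 (adjusted p = 0.00476) and 1.16 ± 0.32 (adjusted p = 0.0495), and Inpp5d, which encodes the inositol phosphatase SHIP1, was lower (-1.11 ± 0.16, adjusted p = 0.00156, and -0.999 ± 0.16, adjusted p = 0.005). Tyrobp, which encodes the Siglec-H adaptor DAP12, did not pass (0.76 ± 0.35 in KO, adjusted p = 0.166, and 0.70 ± 0.35 in WT, adjusted p = 0.256). None of the 7 passed between KO and WT in either cell type.

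Nucleic acid sensing by endosomal Toll-like receptors, the pathway that Pld4 and Pacsin1 touch, was represented by 14 tested genes. Of these, 3 rose (10.7% of all tested genes did) and 5 fell (10.1%) between KO pre-cDC2 and KO pre-cDC1. In WT, 2 rose (4.88%) and 3 fell (6.59%) between pre-cDC2 and pre-cDC1. Tlr3, a cDC1 gene, was lower in pre-cDC2, with log2 differences of -8.51 ± 0.33 in KO (adjusted p = 6.9e-07) and -6.72 ± 0.33 in WT (adjusted p = 3.92e-06). Tlr7, encoding the receptor for single-stranded RNA, had 107 and 114 reads in KO pre-cDC2, 233 and 126 in WT pre-cDC2, 1, 7 and 1 in KO pre-cDC1, and 12, 15 and 28 in WT pre-cDC1. It passed in KO (5.63 ± 0.90, adjusted p = 0.00246) and not in WT (2.90 ± 0.90, adjusted p = 0.0728). Pld3, encoding the exonuclease related to Pld4, was higher in pre-cDC2 by 4.87 ± 0.89 in KO (adjusted p = 0.00478) and 4.13 ± 0.89 in WT (adjusted p = 0.0177), the opposite side from Pld4. Its level was 5.66 and 5.78 log2 RPKM in KO pre-cDC2, and 2.75 and 6.08 in WT pre-cDC2 replicates 2 and 3. Summed T and NK transcripts were also lowest in replicate 2, and their part in Pld3 was not tested. Irf5 was lower, at -2.13 ± 0.36 in KO and -1.86 ± 0.36 in WT, with adjusted p of 0.00298 and 0.0103. None of the 14 passed between KO and WT in either cell type.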

How the data were processed

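The deposited table held log2 RPKM per gene for 10 libraries. Per the labels' protocols, total RNA from sorted cells (2 ng, PicoPure) went through SMARTSeq v2 and paired-end sequencing. The submitters' processing notes name STAR 2.3, featureCounts 1.5.0, R 3.3.3 and edgeR, and GRCm38/mm10; the role of each tool, the annotation release and the strand setting were not given in the sources used here. The ERCC spike-ins that the labels name are not among the table's features.

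Whole reads were recovered from the deposited values with GENCODE M21 exon lengths for 49035 genes and from the values alone for the others: 525500 of 525500 values came out whole within 0.001 reads. The recovered reads serve only for depth, read numbers and 1 alternative.

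Limma 3.58.1 (R 4.3.3; lmFit and eBayes with trend) was run on the log2 RPKM of all 10 libraries with 4 group means, for the 14787 genes above 0 log2 RPKM in at least 2 libraries, with no pseudocount beyond the authors' own; a fold change understates that of low genes. P-values are two-sided and adjusted by Benjamini-Hochberg over all tested genes. The model has 6 residual degrees of freedom. The procedure was also run on simulated data, with changes planted in KO pre-cDC1 only and the same dispersion in every group. That run does not cover the spread between the WT pre-cDC2 libraries. The comparisons of genotype and of cell type share their groups' libraries and are not independent of each other.

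The 10 genes and the gene lists were chosen with earlier results of these data known. Named genes were the 10, up to 3 genes of each list with the smallest p in the comparison described, and the 5 genes most like Siglech; some genes this rule names are not reported here. Replicate numbers were not treated as pairs: deviations from the group means of same-numbered KO and WT pre-cDC1 libraries correlated at -0.0301, 0.00376 and 0.00717. For same-numbered pre-cDC2 and pre-cDC1 libraries they correlated at -0.0199 and 0.0131 in WT and 0.0283 and 0.00409 in KO. With 2 libraries in a pre-cDC2 group the deviations mirror each other, so these values cannot decide whether the cell types were paired. Alternatives changed the filter, pseudocount, normalization, variance model, libraries fitted, each library in turn, a replicate block and, added after seeing the data, limma-voom on recovered reads.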

Additional observations from a re-analysis of the deposited data

How the results depend on the processing

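Of the single-gene differences of the 10 genes, 433 of the values under alternatives other than leaving out a library kept direction and side of the threshold, 4 passed newly, 16 no longer passed and 7 changed sign. The cause was not tested. Those 7 were Pacsin1 in the interaction with 1 RPKM added (-0.31), Pld4 between KO and WT pre-cDC1 (0.0408) and Atp1b1 between KO and WT pre-cDC2 (0.0047) under quantile normalization, and, under centring on library medians and the replicate block, Lair1 between KO and WT pre-cDC2 (-0.0195 and -0.0369) and Bst2 in the interaction (-0.0569 and -0.0547). Pacsin1 passed in WT with 1 RPKM added (3.25, adjusted p = 0.000109). Centring moved the KO cell type calls to 1327 higher and 1943 lower, from 1575 and 1499, and the median of all genes from 0.09 to -0.104.

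Among the 10 genes, fitting only the WT libraries called 3 between the cell types in place of 7. No pairing was shown, and with a replicate block within each genotype 0 passed in WT (adjusted p 0.393 to 0.41 for the 7) and 5 in KO in place of 8. Over all genes that block gave 0 calls in WT (1788 at an unadjusted p below 0.05; 1697 without it) and 848 in KO (3074 without it), and fitting only the WT libraries gave 460. Calls between KO and WT pre-cDC1 (4) became 11 without a filter, 18 with a stricter one, 2 with 1 RPKM added, 9 under quantile normalization, 18 without trend, 53 on these libraries only, 0 with the replicate block (1242 unadjusted) and 0 by limma-voom (1184 unadjusted). Between KO and WT pre-cDC2 (10) they became 25 without a filter, 5 with 1 RPKM added, 42 without trend, 0 on these libraries only (651 unadjusted), 2 with the replicate block and 4 by limma-voom. The interaction (3) gave 1 with the stricter filter, 6 under quantile normalization, 36 without trend, 0 with the replicate block (710 unadjusted) and 1 by limma-voom.

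Leaving out each library in turn gave 0 to 114, 5 to 1048 and 0 to 495 calls for KO against WT in pre-cDC1, in pre-cDC2 and their interaction, and 1418 to 3887 (KO) and 999 to 2722 (WT) between the cell types; the highest in each, other than the 2722 without WT pre-cDC2 replicate 2, came without WT pre-cDC2 replicate 3. Among the 10 genes it called 0 to 3 between KO and WT pre-cDC2 and 0 to 1 in the interaction. Log2 differences whose range crossed 0 were, between KO and WT pre-cDC1, Ccr9 (-0.0020 to 0.0673), Pld4 (-0.0522 to 0.0480), Pacsin1 (-2.75 to 0.63) and Cox6a2 (-0.14 to 0.42). Between KO and WT pre-cDC2 they were Siglech (-1.32 to 0.22), Bst2 (-1.04 to 0.41), Ccr9 (-1.33 to 0.29), Cd300c (-1.25 to 0.31), Pld4 (-1.06 to 0.72), Atp1b1 (-0.66 to 0.57), Upb1 (-1.31 to 0.41), Lair1 (-0.68 to 0.80) and Cox6a2 (-0.0516 to 1.60). Between the cell types they were Ccr9 in KO (-0.71 to 0.0803) and WT (-0.57 to 1.06) and Cd300c in WT (-0.21 to 1.34). In the interaction they were Bst2 (-0.71 to 0.74), Pacsin1 (-0.997 to 2.38), Ccr9 (-1.38 to 0.25), Pld4 (-1.06 to 0.72), Siglech (-0.0560 to 1.49), Cox6a2 (-0.17 to 1.48), Cd300c (-0.52 to 1.03) and Upb1 (-0.29 to 1.43). Precision is limited by 2 libraries per pre-cDC2 group and, for Pacsin1 and Cox6a2 in pre-cDC1, by 0 to 24 reads per library. Reads were also few in pre-cDC1 for Atp1b1 (11 to 98 per library) and Upb1 (32 to 96).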

Other observations

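Some genes of the type I interferon response differed between the cell types. Of 24 tested, 7 rose (10.7% of all tested genes did) and 3 fell (10.1%) between KO pre-cDC2 and KO pre-cDC1. In WT, 4 rose (4.88%) and 1 fell (6.59%) between pre-cDC2 and pre-cDC1. Rtp4 (5.18 ± 0.73 log2 units, limma adjusted p = 0.0012), Oasl2 (2.68 ± 0.42, adjusted p = 0.00214) and Oas1a (1.48 ± 0.25, adjusted p = 0.0031) had the smallest p in KO. In WT they were Mx1, which was lower (-1.06 ± 0.21, adjusted p = 0.0106), Oas1a (1.07 ± 0.25, adjusted p = 0.0236) and Ifit3 (2.37 ± 0.59, adjusted p = 0.032). None of the 24 passed between KO and WT in either cell type. The 15 type I interferon genes themselves were near 0: 10 had no read in any library, and the other 5 had 24 reads in all, at most 6 in 1 library, so none was tested.

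Relatives of the 10 genes did not follow them as a family. Of 26 tested, 9 rose (10.7% of all tested genes did) and 2 fell (10.1%) between KO pre-cDC2 and KO pre-cDC1. In WT, 5 rose (4.88%) and 2 fell (6.59%) between pre-cDC2 and pre-cDC1. Pacsin2, the broadly expressed relative of Pacsin1, was lower in pre-cDC2, at -1.33 ± 0.15 in KO (adjusted p = 0.000476) and -1.26 ± 0.15 in WT (adjusted p = 0.00111). The siglec gene Cd33 was higher by 3.79 ± 0.55 in KO (adjusted p = 0.00139), and the B cell siglec gene Cd22 was lower in WT (-1.90 ± 0.27, adjusted p = 0.00258). None of the 26 passed between KO and WT in either cell type.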
